A study of Homo sapiens with 18 samples.

Results

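The regions described here are the stretches of human chromosome 13 at which accessible chromatin was called in PC9 cells. ATAC-seq uses a transposase that cuts and tags DNA where chromatin is open; it gave 18 libraries with 1 list of called peaks each, and peaks of any libraries that shared at least 1 bp were merged into 1 region. Of the 79496 merged regions, 76947 lay on autosomes and 2145 of those, or 2.79%, lay on chromosome 13. The members were thus chosen by the peak calls themselves, a peak in any 1 library being enough, so the number and the position of the regions are a description and no test was made of them. A library is said below to hold a region when at least 1 of its peaks lay in it.

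PC9 is a cell line from a human lung adenocarcinoma whose growth is driven by a mutant epidermal growth factor receptor (EGFR), the kinase that erlotinib inhibits. There were 6 groups of 3 libraries. DTP (drug-tolerant persister) cells were those still alive after 8 days in 1 µM erlotinib, and the PC9 group received the vehicle DMSO. The ALDH_Low and ALDH_High groups were PC9 cells given 1 µM erlotinib or DMSO for 12 h and then sorted with Aldefluor, which makes cells with active aldehyde dehydrogenase (ALDH) fluoresce, into cells of low and high activity. All groups were grown in the same serum-containing medium and all cells were frozen in medium that itself contained DMSO before the assay. The DTP group is a surviving subset of the culture, so a change within cells and a change in which cells were present cannot be told apart. The libraries of a group carry the letters a, b and c, and the labels do not say whether these were separate cultures, so the p-values speak only to how much these libraries differed among themselves, possibly for technical reasons.

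Chromosome 13 is acrocentric. Its short arm holds ribosomal RNA genes and satellite repeats that reads cannot be placed on with certainty, and its long arm alternates between bands that stain lightly with Giemsa, which are richer in genes, and dark bands, which are AT-rich, late replicating and poor in genes. Accessible regions mark promoters, enhancers and other sites where proteins hold nucleosomes aside, and in cancer cells the sites outside promoters differ most between cell states. No gene annotation of the hg19 build was used here, so regions are placed by band and not by gene. Well-known genes of a band are named only to place the band.

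The lists held between 26228 and 45244 peaks. They were longest in DTP (42207 to 45244) and PC9 (39397 to 41834), and within the sorted cells longer with erlotinib (32586 to 40717) than with DMSO (26228 to 32824). On chromosome 13 they held 625 to 1253 peaks. A peak missing from a list was not called there, which can reflect sequencing depth as well as closed chromatin, and the depth of the libraries is unknown. Each peak carried a score from the authors' peak caller, at least 70 in each list, and below it is given only as a percentile within the library's own list, where 100 is the highest score.

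The label gene-poor held over the full length: chromosome 13 had 338 protein-coding genes, or 2.93 per Mb, the lowest density of the 22 autosomes. Its regions spanned 95.9 of its 115 Mb, while those of chromosome 18, with 3.46 genes per Mb, spanned 78.0 of 78.1 Mb. Over the span with regions chromosome 13 would not be the lowest, so this rank depends on counting the short arm. Chromosome 13 had 18.6 accessible regions per Mb of full length, in rank 20 of 22. The other autosomes had 17.4 to 39.2, with a median of 27.2. Chromosomes 4 and 18, the next poorest in genes, had 18.5 and 19.3 regions per Mb. From the first to the last region, which leaves out the empty short arm, chromosome 13 had 22.4 regions per Mb, in rank 19 of 22. On that measure chromosomes 4 and 18 had 18.5 and 19.3, so chromosome 13 was denser than both. Per gene the order turned round, with 6.35 regions per protein-coding gene on chromosome 13, the highest of the 22. Across the 22 autosomes, gene density and region density ran together (Pearson r = 0.745, Spearman rho = 0.718, n = 22 chromosomes, given as a description because all come from the same libraries). Regions on chromosome 13 had a median width of 941 bp (rank 20 of 22). All 18 libraries held 342 of them, or 15.9%, against 17.8% on the other autosomes, and a single library held 499, or 23.3%, against 21.1%. That last share was the highest among the autosomes, just above the 23.1% of chromosome 4.

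**Figure D1:**
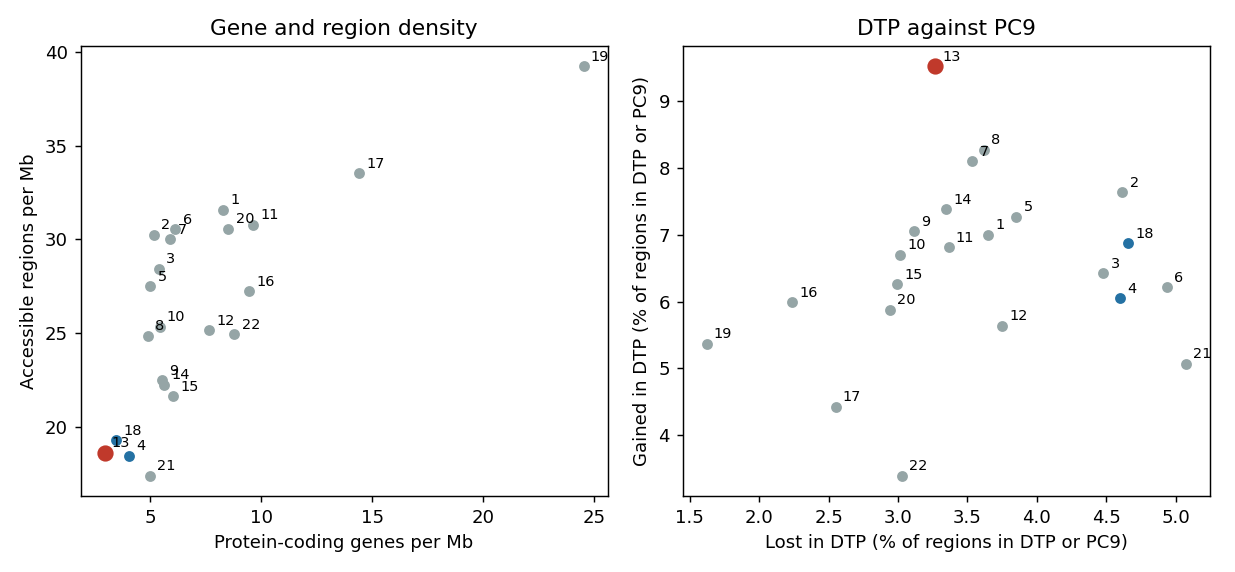
Left, accessible regions per Mb against protein-coding genes per Mb for the 22 autosomes; right, the percentage of regions gained against the percentage lost in DTP, of all regions held by at least 1 DTP or PC9 library. Chromosome 13 is red, chromosomes 4 and 18 are blue and the others grey. Densities are per Mb of full length, short arms included. Chromosome 13 has the lowest gene density on the left. On the right it has the highest gained share, 9.52%, with a lost share of 3.27%.

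Regions lay on the long arm alone, from position 19217982 to 115105957 of hg19, and filled 97 of the 116 windows of 1 Mb. The median filled window held 19 regions, against 27 on the other autosomes. Of the filled windows, 30.9% held 10 regions or fewer, against 17.6% on the other autosomes, 31.7% on chromosome 4 and 36.0% on chromosome 18. The arm fell into dense and sparse stretches. Windows from 19 to 55 Mb averaged 24.7 regions, those from 55 to 73 Mb 7.17, those from 73 to 81 Mb 28.0, those from 81 to 95 Mb 9.29, and those from 95 Mb to the end 36.8. In the sparse stretches few regions were shared by all libraries, 4.65% and 3.85%, and 38.0% and 40.8% were held by a single library.

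The windows with most regions were 110 to 111 Mb with 60 and 111 to 112 Mb with 59, both in 13q34, the last band of the arm, where the collagen genes COL4A1 and COL4A2 and the insulin receptor substrate gene IRS2 lie. Next came 99 to 100 Mb in 13q32.3 with 58, 114 to 115 Mb in 13q34 with 51 and 52 to 53 Mb in 13q14.3 with 47. The 5 windows with fewest regions were 56 to 57 Mb with 1, 19 to 20 Mb and 58 to 59 Mb with 2 each, and 55 to 56 Mb and 57 to 58 Mb with 3 each. Apart from 19 to 20 Mb beside the centromere, these windows lay in 13q21.1, a dark band that held 9 regions over 4.3 Mb. The longest stretch without a called region, 1587 kb, ran from 55212219 to 56798871. By stain, the lightest bands of chromosome 13 held 26.1 regions per Mb, against 34.5 on the other autosomes, and the darkest bands held 14.9, against 17.2. The darkest bands made up 30.4% of the banded length of chromosome 13 and 16.8% of that of the other autosomes.

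**Figure D2:**
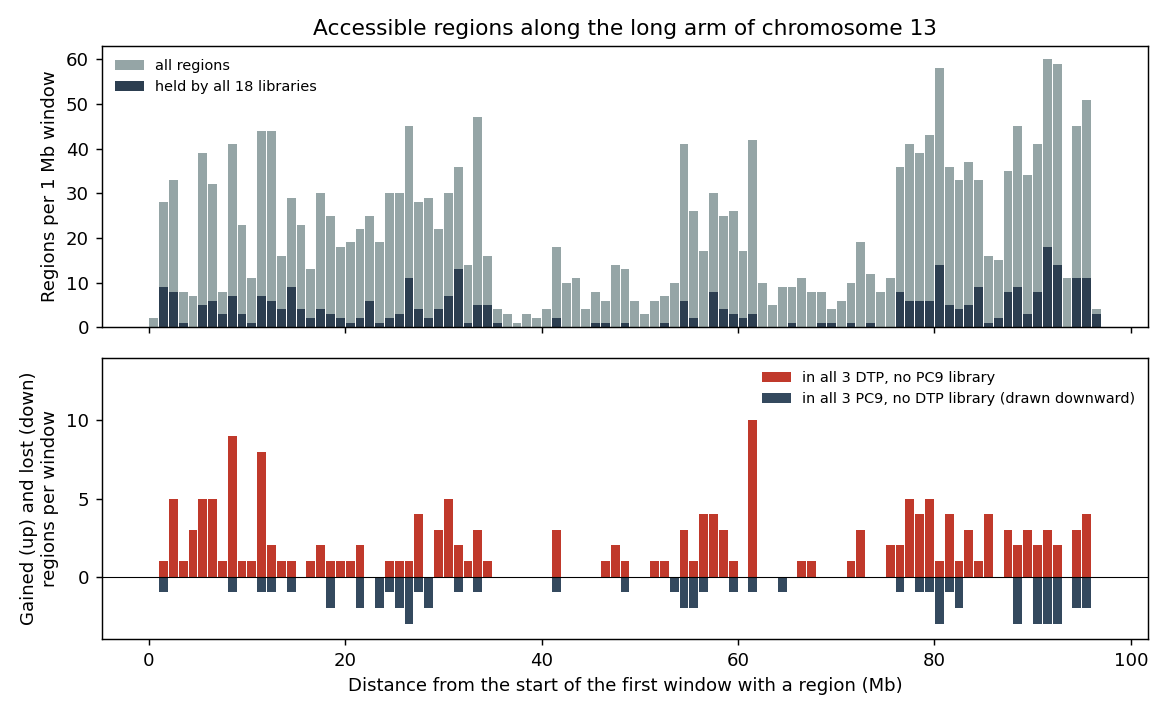
Top, regions per 1 Mb window along the long arm (all regions in grey, those held by all 18 libraries in dark blue); bottom, regions held by all 3 DTP libraries and no PC9 library (red, upward) and by all 3 PC9 and no DTP libraries (blue, downward). The horizontal axis is the distance in Mb from the start of the first window with a region; the window with 10 gained regions is the one at 80 to 81 Mb in 13q31.1.

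A core of regions was called everywhere with very high scores. Of those held by all 18 libraries, the highest by its weakest library was chr13:99135942-99138141 in 13q32.2, which stood at the percentile 99.6 or above in every library. The next were chr13:50017552-50019648 in 13q14.2 (98.5 or above), chr13:95253404-95255121 and chr13:95200633-95203015 in 13q32.1 (98.4 and 98.0 or above) and chr13:107123739-107125862 in 13q33.3 (97.7 or above). Regions held by all 18 libraries were wide, with a median of 1704.5 bp, against 591 bp for those held by 1. On the other autosomes these medians were 1737 and 616 bp. A region spans all peaks merged into it, so its width is not independent of the number of libraries that hold it. The widest region, chr13:110433406-110440553 in 13q34, spanned 7148 bp and was held by 17 libraries. The others of the 3 widest, chr13:100631234-100636388 in 13q32.3 and chr13:111364074-111369192 in 13q34, were held by all 18.

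DTP cells had a larger part of their open chromatin on chromosome 13 than PC9 cells did. The chromosome took 2.78%, 2.83% and 2.86% of the autosomal peaks of the DTP libraries, against 2.60%, 2.52% and 2.61% in the PC9 libraries. The groups did not overlap. The means were 2.82% ± 0.0414 in DTP and 2.58% ± 0.0519 in PC9 (SD, n = 3 each), a difference of 0.245 percentage points or 9.5% in relative terms, which was the largest relative increase among the 22 autosomes. The exact two-sided permutation test gave p = 0.1, the smallest that 3 against 3 libraries allow, and 0.169 after Benjamini-Hochberg adjustment over the autosomes, so this design cannot reach 0.05. An adjusted value that low requires most autosomes to have this smallest p in the same comparison. Groups without overlap, in either direction, were thus common and not particular to chromosome 13. Against chromosome 4, the DTP libraries had 0.672 ± 0.0153 chromosome 13 peaks per chromosome 4 peak, and the PC9 libraries 0.586 ± 0.0149 (SD, n = 3 each). Against chromosome 18 the ratios were 1.47 ± 0.0250 in DTP and 1.32 ± 0.0322 in PC9. With the same 25477 highest-scoring peaks taken from every library, the difference in share was 0.256 points.

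At 12 h the shares lay closer together. They were 2.54%, 2.52% and 2.44% with erlotinib in ALDH-low cells, against 2.47%, 2.45% and 2.48% with DMSO, and these overlapped (difference 0.0329 points, exact permutation p = 0.4). In ALDH-high cells they were 2.59%, 2.54% and 2.55% with erlotinib, against 2.5%, 2.51% and 2.46% with DMSO, without overlap (difference 0.0679 points, exact permutation p = 0.1, the smallest possible). After adjustment over the autosomes that permutation p was 0.22. Over both fractions the difference was 0.0504 points, with an exact stratified permutation p of 0.035 and 0.0856 after adjustment over the autosomes. Without the ALDH-low erlotinib library c it was 0.0654 points and the adjusted p 0.0157. Leaving out any other library, in 11 runs, gave no adjusted p under 0.05. There the adjusted p reached 0.176 and the difference fell to as little as 0.0401 points. The ALDH-high libraries exceeded the ALDH-low libraries by 0.0404 points over both treatments (exact p = 0.035, adjusted p = 0.0963). The erlotinib effect differed between the fractions by 0.0351 points (exact permutation p = 0.525).

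**Figure D3:**
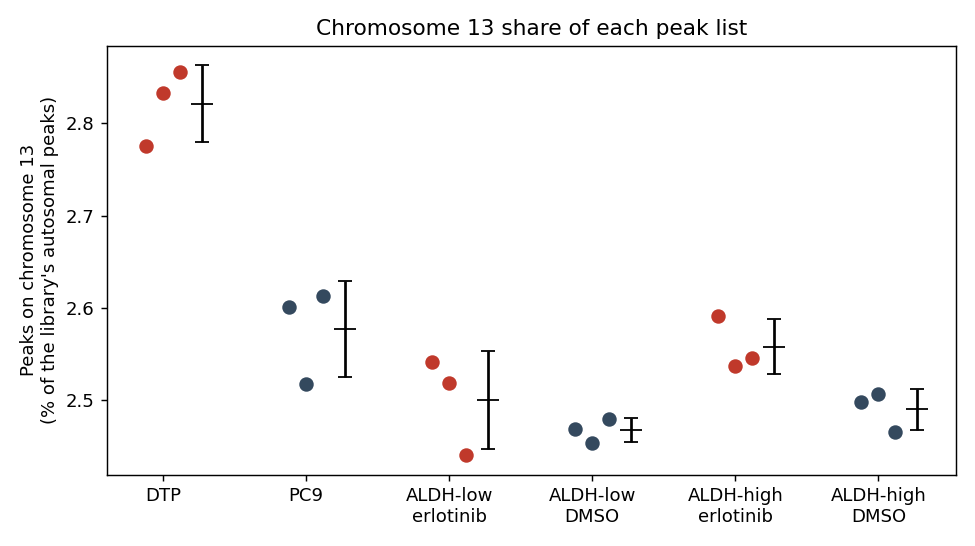
Percentage of each library's autosomal peaks that lay on chromosome 13, 1 point per library, with the mean and SD of each group of 3 beside it; erlotinib groups are red and DMSO groups blue. The vertical axis does not start at 0; the 3 DTP libraries, from 2.78% to 2.86%, lie above all 15 others.

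The regions themselves turned over at 8 days, mostly by gain. Gained here means held by every DTP library and by no PC9 library, and lost means the opposite; the same words are used for the other pairs of groups. Of the 1775 regions held by at least 1 DTP or PC9 library, 169 were gained in DTP, or 9.52%, against 6.76 percent of autosomal regions, and 58 were lost, or 3.27%, against 3.69 percent. The gained share of chromosome 13 was the highest of the 22 autosomes, whose lowest was 3.39%, while chromosomes 4 and 18 had 6.05% and 6.87%. The lost share ranked 14 of 22, with 4.60% on chromosome 4 and 4.66% on chromosome 18. DTP lists were longer than PC9 lists, and with lists of equal length 91 regions were gained and 52 lost; the gained share was then 8.39%, against 5.49% over the autosomes, and again the highest. Regions held by all 3 DTP libraries and by no other library of the 18 numbered 73 on chromosome 13, or 3.40% of its regions, against 2.32% on the other autosomes. For PC9 that number was 13, or 0.606%, against 0.504% on the other autosomes.

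Gains were spread over 66 windows and losses over 36. By band, 13q31.1 gained 12 regions, and 13q12.12, 13q12.3 and 13q32.1 gained 11 each. Bands 13q12.13, 13q14.2 and 13q33.3 gained 10 each, while 13q34 lost most by count, 10. Bands differed in their number of regions in the comparison, so these counts do not rank them by share. The gained share was highest in 13q12.13, at 21.3% of 47, against 15.2% of 79 in 13q31.1 and 10.5% of 95 in 13q33.3. The 10 lost in 13q34 were among 180 regions, while 13q22.1 lost 4 of 52. The darkest bands gained 38 regions, or 11.9% of those in the comparison, against 8.14% in the darkest bands of the other autosomes. The lightest bands gained 85, or 8.46%, against 6.29%. The next darkest class went the other way, with 6.84% gained on chromosome 13, against 7.73% on the other autosomes, so the higher gained share did not hold for every class of band. In the palest of the stained classes the gained share was 12.0%, against 5.47%, the widest difference of any class. In the class after it the share was 10.8%, against 7.03%.

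Of the gained regions, the 5 with the highest percentile in their weakest DTP library were led by chr13:30646300-30647363 in 13q12.3, at percentiles of 80.8, 80.4 and 86.8 in DTP libraries a, b and c and uncalled in PC9. It was also held, at low percentiles of 6.64 to 20.9, by 4 of the 6 sorted erlotinib libraries and no sorted DMSO library. The second, chr13:77550138-77551473 in 13q22.3, stood at 79.2, 79.5 and 77.8 in DTP and was uncalled in PC9. The third was chr13:80195477-80197044 in 13q31.1, at 88.9, 77.4 and 77.6 in DTP and uncalled in PC9. All 6 sorted erlotinib libraries held both of these regions, and 1 ALDH-high DMSO library held the second at a percentile of 3.75. The fourth, chr13:98858945-98860022 in 13q32.2, stood at 84.1, 89.4 and 74.9 in DTP and was called in no other library. The fifth, chr13:86102451-86103747 in 13q31.1, stood at 77.3, 73.1 and 82.5 in DTP and was held by 2 sorted libraries, 1 with erlotinib and 1 with DMSO. The 5 thus differed in what they did at 12 h.

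Among lost regions, the leading one was chr13:45390896-45392212 in 13q14.12, uncalled in DTP and at percentiles of 68.1, 81.7 and 93.8 in PC9. All 12 sorted libraries held it. The next, chr13:110765121-110766491 in 13q34, was uncalled in DTP and stood at 66.4, 71.6 and 73.4 in PC9. It was also uncalled in the 3 ALDH-low erlotinib libraries, against 44.4, 36.7 and 36.1 in the ALDH-low DMSO libraries. The region was thus lost in unsorted DTP cells at 8 days and, separately, in ALDH-low cells at 12 h. The remaining 3 were chr13:73939329-73940547 in 13q22.1, where the epithelial transcription factor gene KLF5 lies, and chr13:107269491-107270682 and chr13:107159819-107161054 in 13q33.3. Their weakest PC9 percentiles were 52.5, 52.1 and 51.8.

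Regions gained in DTP were already called more often with erlotinib than with DMSO at 12 h. Of the 169, the ALDH-low erlotinib libraries held 27% ± 4.75 and the ALDH-low DMSO libraries 1.78% in each of 3 libraries (SD, n = 3 each). The ALDH-high erlotinib libraries held 32.5% ± 8.28 and the ALDH-high DMSO libraries 4.34% ± 1.23. The same held on the other autosomes. There the shares were 29.6% with erlotinib and 3.39% with DMSO in the ALDH-low fraction, and 34.5% with erlotinib and 5.79% with DMSO in the ALDH-high fraction. The sorted libraries share no sample with the choice of the 169, but erlotinib lists were also longer than DMSO lists, whose part in the result was not tested. Of the 169, 73 were held by no sorted library, 11 by all 6 erlotinib and no DMSO libraries, and none by all 12. These are 43.2%, 6.51% and 0%, close to the 41.9%, 7.21% and 0.169% of the regions gained in DTP on the other autosomes. Of the 58 lost regions, the ALDH-low erlotinib libraries held 19.5% ± 6.05 and the ALDH-low DMSO libraries 23.6% ± 6.53, which overlapped. The ALDH-high erlotinib libraries held 26.4% ± 5.27 and the ALDH-high DMSO libraries 37.4% ± 7.96 (SD, n = 3 each), without overlap. Lost regions of the other autosomes had the same order, at 22.4% with erlotinib and 29.7% with DMSO in ALDH-low cells, and 26.8% with erlotinib and 43.6% with DMSO in ALDH-high cells.

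After 12 h of erlotinib, ALDH-low cells gained 105 of 1331 regions, or 7.89%, against 6.82 percent over the autosomes, and lost 15, or 1.13%, against 0.887 percent. ALDH-high cells gained 72 of 1441, or 5.00%, against 4.49 percent, and lost 10, or 0.694%, against 1.01 percent. With lists of equal length the split was far more even, with 43 gained and 30 lost in ALDH-low cells and 39 gained and 23 lost in ALDH-high cells. The gained count was 174 without the ALDH-low erlotinib library c, the shortest of its group, and 130 without the ALDH-high erlotinib library b, likewise the shortest. The lost counts moved by more than 1.5 times too, to 24 without erlotinib library a or DMSO library a and to 26 without DMSO library c in ALDH-low cells. In ALDH-high cells they were 19 and 18 without erlotinib libraries a and c, and 20, 16 and 25 without DMSO libraries a, b and c. Over both fractions 23 of 1656 regions were gained, or 1.39%, against 1.54 percent, and 1 was lost, or 0.0604%, against 0.158 percent. The lost region was chr13:75939702-75940715 in 13q22.2, and the count was 2 without any 1 of ALDH-high erlotinib libraries a, b and c, ALDH-low DMSO libraries a and c or ALDH-high DMSO library b. In lists of equal length 10 were gained and 4 lost.

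In gained share chromosome 13 ranked 2 of 22 in ALDH-low cells, 3 in ALDH-high cells and 13 for both fractions together. At equal list length it ranked 2 in ALDH-low cells, with 4.04% against 3.40% over the autosomes, and 1 in ALDH-high cells, with 3.87% against 3.01%, and again 13 for both. Of the 105 regions gained in ALDH-low cells, 23 were also gained in DTP, which is 21.9% of the 105 and 13.6% of the 169. On the other autosomes these shares were 16.6% and 13.6%. Of the 72 gained in ALDH-high cells, 18 were also gained in DTP, which is 25% of the 72 and 10.7% of the 169, against 23.2% and 13.4% on the other autosomes.

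The strongest gain in ALDH-low cells was chr13:80163241-80164580 in 13q31.1, at percentiles of 77.8, 71.6 and 75.8 with erlotinib and uncalled with DMSO. It was followed by chr13:99159014-99160392 in 13q32.2 at 70.2, 77.4 and 83.4, chr13:113644668-113645947 in 13q34 at 85.7, 84.9 and 70.1, chr13:80015200-80016517 in 13q31.1 at 67.8, 76.8 and 74.2, and chr13:33726083-33727822 in 13q13.1 at 77.6, 67.7 and 75.6, all in the erlotinib libraries of ALDH-low cells and all uncalled with DMSO. In ALDH-high cells the leading gain was chr13:80340942-80341964 in 13q31.1, at 70, 76.4 and 71.1 with erlotinib and uncalled with DMSO. The regions in 13q13.1 and at 99159014 were among its next 4 as well. The others were chr13:98953056-98954865 in 13q32.2 and chr13:42242023-42242837 in 13q14.11. All DTP and all PC9 libraries also held the one in 13q14.11.

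In the full lists, losses at 12 h were fewer than gains, while at equal list length the split was more even. DMSO lists were shorter than erlotinib lists, so percentiles of losses cannot be compared directly with those of gains. In ALDH-low cells the leading one was chr13:25238735-25239904 in 13q12.12, uncalled with erlotinib and at percentiles of 47.5, 51.1 and 54.5 with DMSO. This region was held by all DTP libraries, at 79.2 to 94.2, and all PC9 libraries, at 52.9 to 70.7, so its loss at 12 h was not seen at 8 days. In ALDH-high cells it was chr13:37444686-37445678 in 13q13.3, uncalled with erlotinib and at 40.6, 56.7 and 57.2 with DMSO.

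Presence and absence over the 12 sorted libraries was also tested region by region, with an exact conditional permutation test stratified by fraction. On chromosome 13, 165 regions could reach an unadjusted p under 0.05. Of these, 77 were held by more erlotinib libraries and 7 by more DMSO libraries at that level, which is 46.7% and 4.24%, against 42.7 percent and 5.60 percent over the autosomes. All 84 had an adjusted p under 0.05 when the adjustment ran over the 6281 autosomal regions that could reach that level, since the choice of testable regions removes those that cannot. With lists of equal length 59 of 125 passed, 35 toward erlotinib and 24 toward DMSO, against 2064 of 4567 over the autosomes. When the adjustment also took in regions whose smallest possible p was 0.05, 24 of 251 passed (23 toward erlotinib and 1 toward DMSO). Over the autosomes 1061 of 9128 then passed. Over all 30103 autosomal regions with a smallest possible p under 1, none passed, with a smallest adjusted p of 0.142. Those last adjustments were chosen after seeing the data, and the single calls on chromosome 13 rest on which regions are counted as testable.

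Between the ALDH fractions few regions changed hands. With DMSO, ALDH-high cells gained 14 of 1128 regions relative to ALDH-low cells, or 1.24%, against 1.27 percent over the autosomes, and lost 5, or 0.443%, against 0.142 percent. With erlotinib they gained 15 of 1451, or 1.03%, against 0.889 percent, and lost 8, or 0.551%, against 0.450 percent. Over both treatments together no region was gained, against 0.0176 percent, and none was lost, against 0 percent. These counts moved with single libraries. Gains with DMSO were 35, 28 and 36 without ALDH-high libraries a, b and c and 24, 33 and 23 without ALDH-low libraries a, b and c, and losses were 8, 13 and 11 without ALDH-low libraries a, b and c. Gains with erlotinib were 27, 42 and 31 without ALDH-high libraries a, b and c and 39 without ALDH-low library a, while losses were 20 and 14 without ALDH-high libraries a and c and 13 and 27 without ALDH-low libraries a and c. Over both treatments 1 region was gained without ALDH-low DMSO library b or ALDH-low erlotinib library a. With lists of equal length 3 were gained and 6 lost with DMSO, and 10 gained and 9 lost with erlotinib. The leading gain with DMSO was chr13:107173162-107174296 in 13q33.3, where the ephrin gene EFNB2 lies. It stood at percentiles of 36.9, 23.9 and 51.3 in the ALDH-high DMSO libraries and was uncalled in the ALDH-low DMSO libraries. The leading loss, chr13:97947591-97948637 in 13q32.1, had a percentile of only 10.9 in its weakest ALDH-low DMSO library. With erlotinib the leading gain was chr13:46693944-46695018 in 13q14.13 and the leading loss chr13:73639800-73640791 in 13q22.1, with weakest percentiles of 27.8 and 37.9.

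To compare whole neighbourhoods, peaks were counted in 1 Mb windows, scaled to 10000 autosomal peaks per library, and fitted with limma across 1989 autosomal windows with a mean of at least 5 peaks, on the log2 scale with 0.5 added. Of 57 such windows on chromosome 13, 11 were higher in DTP than in PC9 at an adjusted p under 0.05, or 19.3%, against 6.03 percent over the autosomes, and 3 were lower, or 5.26%, against 7.84 percent. At equal list length 12 were higher and 6 lower of 49, and with windows moved by 0.5 Mb 8 were higher and 1 lower of 64. Over the autosomes the calls in either direction rose too, from 276 to 374 at equal list length and to 326 with moved windows. The autosomal windows tested at these settings were not counted, so whether the excess on chromosome 13 held there was not tested. The median change over the 57 windows was 0.13, the highest of the 22 autosomes, whose others ranged from -0.19 to 0.09. The windows that were higher lay between 21 and 49 Mb and between 76 and 107 Mb, in 13q12.11, 13q12.12, 13q12.13, 13q12.3, 13q13.3, 13q14.2, 13q22.2, 13q31.1, 13q31.3 and 13q33.2. The total of 14 windows became 9, 7 and 8 without DTP library a, DTP library c and PC9 library b.

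At 25 to 26 Mb in 13q12.13 the DTP libraries had 22, 23 and 25 peaks, against 12, 13 and 14 in PC9, and the log2 change was 0.64 (SE 0.13, adjusted p = 0.000605, limma). At 27 to 28 Mb in the same band, DTP had 30, 33 and 28 peaks and PC9 18, 16 and 18 (log2 change 0.63, SE 0.11, adjusted p = 0.000145, limma). In neither window did the groups overlap, and 5 and 9 regions there were gained, against 0 and 1 lost. Both windows differed little at 12 h: their peaks numbered 14, 15 and 11 with erlotinib and 9, 8 and 11 with DMSO at 25 to 26 Mb in ALDH-low cells, and neither passed the test in either fraction. The window at 39 to 40 Mb held 11 peaks or fewer per library (log2 change 0.59, SE 0.20, adjusted p = 0.0446, limma), with an adjusted p of 0.063 when no filter was set. The window at 91 to 92 Mb, with 7, 10 and 11 peaks in DTP and 3, 3 and 8 in PC9, averaged 4.73 peaks over the other 5 groups and so passed the filter only through DTP, where it was high. It counts among the 11 but supports nothing, and with no filter its adjusted p was 0.0871. Leaving out any library other than PC9 library a ended the call at 39 to 40 Mb, with an adjusted p of up to 0.245.

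The windows lower in DTP were 99 to 100 Mb in 13q32.3, 45 to 46 Mb in 13q14.12 and 110 to 111 Mb in 13q34, all rich in regions. At 45 to 46 Mb DTP had 26, 29 and 27 peaks and PC9 30, 31 and 34 (log2 change -0.31, SE 0.09, adjusted p = 0.0205, limma). At 110 to 111 Mb DTP had 35, 36 and 37 peaks and PC9 42, 39 and 39 (log2 change -0.26, SE 0.07, adjusted p = 0.0125, limma). The call at 45 to 46 Mb ended without DTP library a or c or PC9 library b or c, with an adjusted p of up to 0.0791, and that at 110 to 111 Mb without PC9 library a, with an adjusted p of 0.0789. At equal list length the change at 110 to 111 Mb was larger, at -0.45 with an adjusted p of 6.01e-05.

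**Figure D4:**
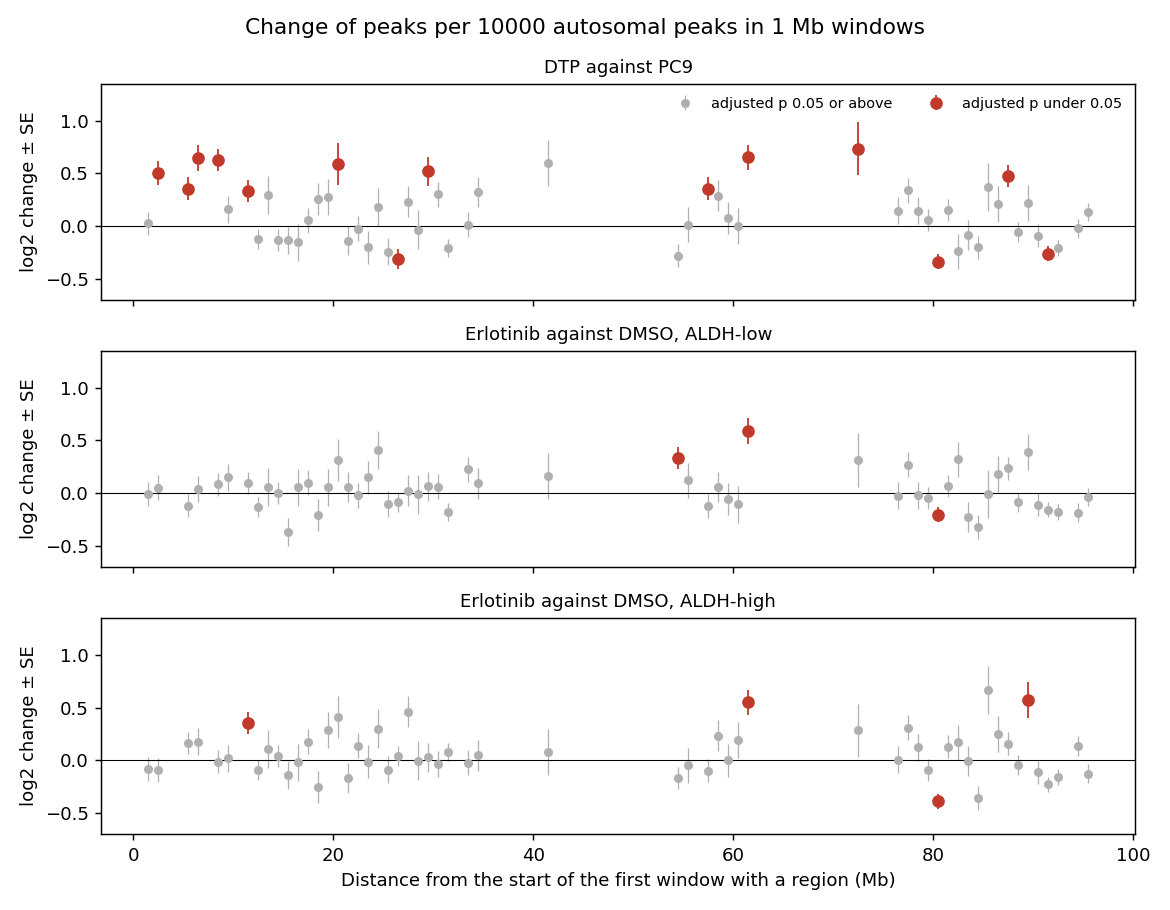
Log2 change in peaks per 10000 autosomal peaks, with its SE, for the 57 tested 1 Mb windows, against the distance in Mb from the first window with a region, for DTP against PC9 (top) and for erlotinib against DMSO in ALDH-low (middle) and ALDH-high cells (bottom). Red windows have an adjusted p under 0.05 (limma); the window at 80 to 81 Mb is red and above 0 in each panel and that at 99 to 100 Mb is red and below 0 in each.

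In ALDH-low cells 2 of the 57 windows were higher with erlotinib than with DMSO and 1 was lower, or 3.51% and 1.75%, against 6.99 percent and 6.94 percent over the autosomes. In ALDH-high cells 3 were higher and 1 lower, or 5.26% and 1.75%, against 2.41 percent and 2.06 percent. The ALDH-low total of 3 was 1 without erlotinib library b or c, and the ALDH-high total of 4 was 2 without erlotinib library a, erlotinib library c or DMSO library b. Besides the windows at 80 to 81 and 99 to 100 Mb, described next, these were 73 to 74 Mb in ALDH-low cells (log2 change 0.34, adjusted p = 0.0304, limma) and, in ALDH-high cells, 108 to 109 Mb (0.57, adjusted p = 0.0458, limma) and 30 to 31 Mb (0.36, adjusted p = 0.0352, limma). The call at 73 to 74 Mb ended without erlotinib library b or c or DMSO library a or c, with an adjusted p of up to 0.116. Those at 108 to 109 and 30 to 31 Mb ended without any library of the comparison other than DMSO library a, with adjusted p of up to 0.163 and 0.167. At equal list length the changes at 73 to 74 and 108 to 109 Mb were 0.32 (adjusted p = 0.0931, limma) and 0.14 (adjusted p = 0.733, limma), while that at 30 to 31 Mb was larger, at 0.52 (adjusted p = 0.00669, limma). With no filter on windows the adjusted p was 0.0932 at 108 to 109 Mb and 0.0509 at 30 to 31 Mb. Between ALDH-high and ALDH-low cells limma called no window on chromosome 13 under DMSO, against 0.503 percent higher and 0.201 percent lower over the autosomes, nor under erlotinib, against 0 percent each way. At an unadjusted limma p under 0.05, 4 of 57 were higher and 3 lower under DMSO, against 145 and 116 of 1989 over the autosomes. Under erlotinib there were 2 each way, against 99 and 77 of 1989.

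The window at 80 to 81 Mb in 13q31.1 was higher with erlotinib in all 3 comparisons. This dark band is the home of SPRY2, which encodes a Sprouty protein, a feedback inhibitor of signalling by receptor tyrosine kinases that is itself induced by growth factor signals. The DTP libraries had 26, 25 and 28 peaks in the window and the PC9 libraries 14, 15 and 15 (log2 change 0.65, SE 0.12, adjusted p = 0.00039, limma). In ALDH-low cells there were 23, 16 and 18 with erlotinib and 8, 10 and 8 with DMSO (0.59, SE 0.12, adjusted p = 0.00168, limma). In ALDH-high cells there were 24, 19 and 22 with erlotinib and 12, 14 and 9 with DMSO (0.55, SE 0.12, adjusted p = 0.00786, limma). The groups overlapped in none of the 3, and the 3 comparisons share no library. They were fitted together with a shared estimate of spread, so their p-values are not independent. How many other autosomal windows separate in the same way was not counted. Lists of equal length gave changes of 0.91, 0.74 and 0.76. Without the ALDH-high DMSO library c the last one was 0.41 with an adjusted p of 0.0615.

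The window held 42 regions. Of these, 10 were gained and 1 lost in DTP, 9 gained and 0 lost in ALDH-low cells, and 6 gained and 0 lost in ALDH-high cells. It had the most gained regions of any window on chromosome 13 in each of these comparisons. Over the 2708 autosomal windows with a region, only 2 windows, this one included, had 10 or more regions gained in DTP, 3 had 9 or more gained in ALDH-low cells and 16 had 6 or more gained in ALDH-high cells. Because the window was singled out after these counts were seen, they are given as a description.

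**Figure D5:**
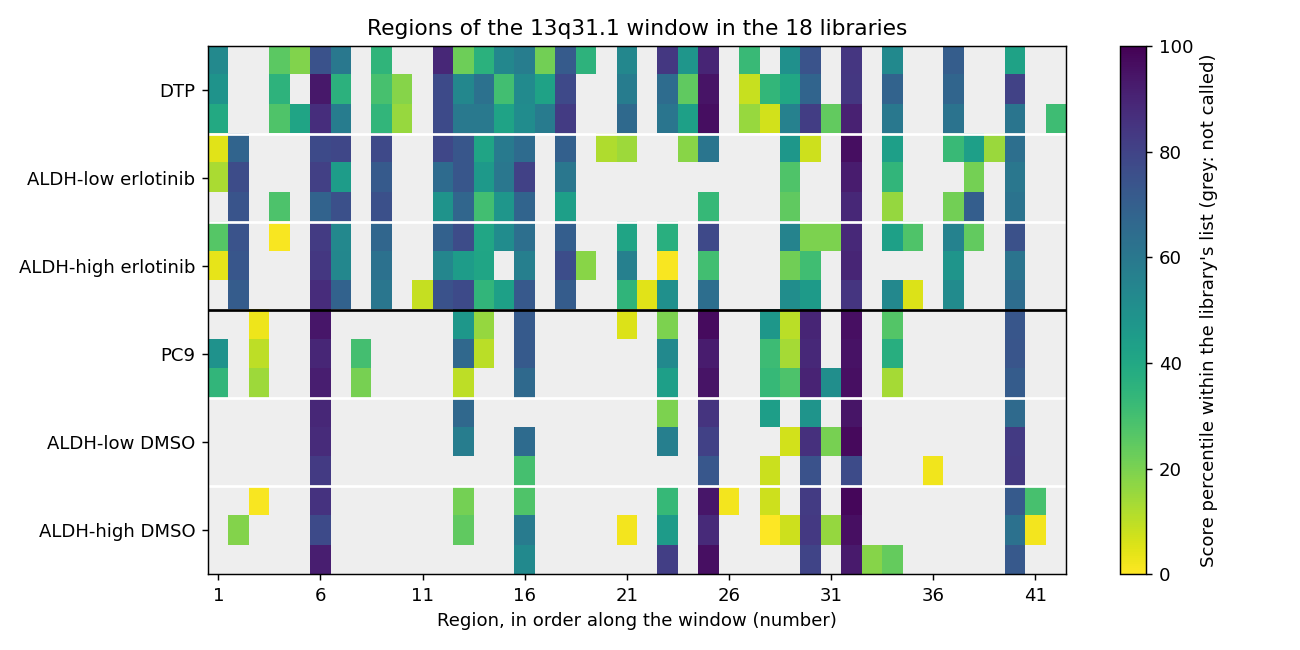
The 42 regions of the window at 80 to 81 Mb, in order along the chromosome from left to right, in the 18 libraries (rows a to c of each group from top to bottom, erlotinib groups above the black line and untreated groups below). Colour gives the score percentile within the library's own list and grey means that no peak was called; regions 7, 9, 12 and 18 are coloured in all 9 erlotinib libraries and grey in all 9 others.

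Across all of chromosome 13, 11 regions were held by all 9 erlotinib libraries (DTP and both sorted fractions) and by none of the 9 others, or 0.513% of its regions, against 0.403% over the autosomes. Of those 11, 4 lay in this window. They were chr13:80058726-80060016, chr13:80163241-80164580, chr13:80195477-80197044 and chr13:80340942-80341964. Their scores were not alike: the region at 80163241 stood at 34.8, 29.0 and 34.1 in DTP, while with erlotinib it stood at 77.8, 71.6 and 75.8 in ALDH-low cells and at 66.8, 62.6 and 60.7 in ALDH-high cells, and that at 80195477 stood at 88.9, 77.4 and 77.6 in DTP. The other 7 were spread over 13q12.3 to 13q34, among them chr13:33726083-33727822 in 13q13.1, which stood between 67.6 and 84.8 in each of the 9 libraries. The reverse pattern, all 9 untreated and no erlotinib libraries, occurred in none on chromosome 13, against 0.0325% over the autosomes.

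Around these 4 regions the window also held sites called in every library. All 18 libraries held 3 of its regions: chr13:80054588-80056382, the nearest region before the first of the 4, chr13:80659710-80661376 and chr13:80912528-80916291, the widest of the window at 3764 bp. Other regions followed 1 time or group. Among those gained in DTP, chr13:80324209-80324962 and chr13:80563307-80564016 were held by the 3 DTP libraries and no others. In contrast chr13:80015200-80016517 was held by all 6 sorted erlotinib libraries, 1 ALDH-high DMSO library and no DTP or PC9 library. The region chr13:80025465-80026341 was the one lost in DTP, uncalled there and held by all 3 PC9 libraries. In all, 28 of the 42, or 66.7%, were held by more erlotinib than untreated libraries, against 55.1% over chromosome 13 and 52.7% over the other autosomes, and other windows had as large a share, such as 28 of 41 at 27 to 28 Mb.

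The window at 99 to 100 Mb, most of it in 13q32.3, was lower with erlotinib in all 3 comparisons. DTP libraries had 31, 31 and 33 peaks and PC9 libraries 38, 34 and 40 (log2 change -0.34, SE 0.07, adjusted p = 0.00113, limma), without overlap. In ALDH-low cells there were 37, 32 and 27 with erlotinib and 28, 25 and 27 with DMSO, so the raw numbers were not lower and the scaled change was -0.20 (SE 0.07, adjusted p = 0.048, limma). In ALDH-high cells there were 33, 27 and 33 with erlotinib and 36, 31 and 33 with DMSO (-0.39, SE 0.07, adjusted p = 0.00136, limma). With lists of equal length the sorted comparisons did not pass, at -0.13 with an adjusted p of 0.389 in ALDH-low cells and -0.26 with an adjusted p of 0.087 in ALDH-high cells, while DTP against PC9 did, at -0.33. In ALDH-low cells leaving out any library other than DMSO library b also ended the call, with an adjusted p of up to 0.163.

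This window held 58 regions, 14 of them in all 18 libraries, and few crossed from all libraries of a group to none. In DTP 3 were lost and 1 was gained, and at 12 h none was lost in either fraction, while ALDH-low cells gained 3 and ALDH-high cells 1. The lost regions were chr13:99095216-99096448, chr13:99316220-99316877 and chr13:99848523-99850233. The last of these was held by all 12 sorted libraries and all 3 PC9 libraries but by no DTP library. The window also holds chr13:99159014-99160392, held by all 6 sorted erlotinib libraries, 2 DTP libraries and no untreated library, so that its lower peak count went with at least 1 clear gain.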

How the data were processed

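ATAC-seq libraries of the PC9 cell line were deposited as 18 peak lists, 1 per library. BWA, MACS 1.4.2 and the hg19 build are named per the submitters' processing notes, without parameters. The deposited score of each peak, from the authors' peak caller, has no stated scale and was used within its own list, for percentiles and filters. Depth is unknown, so no interval for counting error was given. Peaks were merged at 1 bp of overlap (the regions matched those of bedtools 2.31.1), and regions were placed in 1 Mb windows by their midpoint. Bands and lengths are those of hg19; protein-coding genes per chromosome were counted in RefSeq for GRCh38, without its coordinates. Statistics used Python 3.11.15, scipy 1.17.1 and limma 3.58.1 in R 4.3.3; tests were tried on simulated data. Groups were taken from the sample labels. The 7 tests of a share were exact and two-sided, and adjusted p-values are Benjamini-Hochberg. Libraries with the same letter did not deviate together over windows (r from -0.0458 to 0.0431), so letters were not used as pairs. Named regions were, per comparison and direction, the 5 with the highest percentile in their weakest holding library, those held by all 18 chosen likewise, and the 3 widest. Named windows were the 5 with most and fewest regions and up to 5 per direction past the threshold. The members, lists and tests were chosen with earlier results of these data known. No sequence was printed.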

Additional observations from a re-analysis of the deposited data

Results flagged for a closer look

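On chromosome 13, 3 regions went opposite ways at the 2 times: each was lost at 8 days, with no DTP library and all 3 PC9 libraries holding it, and gained at 12 h in at least 1 ALDH fraction, with all 3 erlotinib libraries and no DMSO library holding it. This difference between times was not tested. The region chr13:110430078-110431212 in 13q34 did so in both fractions. It was uncalled in DTP and stood at percentiles of 4.73, 34.1 and 12.4 in PC9, and at 12 h it stood at 41.2, 43.3 and 21.5 in ALDH-low and 58.9, 20.5 and 52.1 in ALDH-high erlotinib libraries, with no DMSO library holding it. The region chr13:100808814-100809816 in 13q32.3 did so in ALDH-low cells, at 78.3, 21.7 and 51.9 with erlotinib. In ALDH-high cells it was held by all 3 erlotinib libraries and 2 DMSO libraries. The region chr13:101863360-101864399 in 13q33.1 did so in ALDH-high cells, at 36.3, 52.4 and 8.10 with erlotinib, and no ALDH-low library held it. These 3 are 5.17% of the 58 regions lost in DTP on chromosome 13; on the other autosomes 59 regions, or 2.57% of the lost ones, did the same.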

How the results depend on the processing

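Directions of the chromosome 13 share turned in 3 cases: with scores of at least 100, erlotinib against DMSO in ALDH-low cells gave -0.00275 points and ALDH-high against ALDH-low with DMSO -0.0329, and with lists of equal length the last gave -0.0209. No other share turned. Lists of equal length moved the regions gained to 91 in DTP, 43 and 39 (lost 30 and 23) with erlotinib in ALDH-low and ALDH-high cells, 10 gained and 4 lost over both fractions, and 3 gained in ALDH-high against ALDH-low with DMSO. Scores of at least 100 left 9 and 5 lost with erlotinib in ALDH-low and ALDH-high cells, 9 gained and 3 lost between fractions with DMSO and 5 lost with erlotinib. Peaks covering 50% of a region gave 22 gained between fractions with DMSO and 1 over both treatments. Windows moved by 0.5 Mb left 9 in DTP, and with no filter 8 and 2 passed with erlotinib in ALDH-low and ALDH-high cells. Single regions passing were 24 of 27 under the replicate block (labels exchanged only within a letter), against 1061 of 1241 over the autosomes. They were 24 of 251 with regions whose smallest p is 0.05, against 1061 of 9128, and 0 over all regions with a smallest p under 1. The block, a hint only since letters do not pair libraries, also gave 2 lower windows in place of 1 with erlotinib in ALDH-low cells, and left the other window counts as they were in each direction.

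Leaving out 1 library at a time gave differences in share of 0.215 to 0.268 points for DTP against PC9. With erlotinib against DMSO they were 0.0122 to 0.0628 in ALDH-low cells, 0.0512 to 0.0787 in ALDH-high cells and 0.0401 to 0.0654 over both. For ALDH-high against ALDH-low they were 0.0145 to 0.0354 with DMSO, 0.0280 to 0.0786 with erlotinib and 0.0255 to 0.0508 over both. Gained and lost regions ran from 183 to 232 and 67 to 81 in DTP, 121 to 174 and 15 to 26 in ALDH-low cells, 89 to 130 and 11 to 25 in ALDH-high cells and 24 to 32 and 1 to 2 over both. Between fractions they ran from 23 to 36 and 6 to 13 with DMSO, 17 to 42 and 8 to 27 with erlotinib, and 0 to 1 gained over both. Windows passing ran from 7 to 12 in DTP, 1 to 3 in ALDH-low and 2 to 4 in ALDH-high cells. Fewer libraries make the rule for gain and loss easier to meet; the cause of the other moves was not tested. Of 224 values for 56 named region calls, 183 kept their call, 41 were weaker and 0 reversed; of 163 values for 15 named window calls, 118 kept it, 45 were weaker and 0 reversed. Unknown depth limits every statement that a region was not called.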

Other observations

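Regions held by all 18 libraries stood at different ranks in the lists of the sorted cells. In the ALDH-low erlotinib libraries a, b and c, the median percentile of these regions on chromosome 13 was 80.4, 77.5 and 72.5, against 81.3, 79.3 and 76.8 for those on the other autosomes. In the ALDH-low DMSO libraries it was 74.2, 73.4 and 74.5 on chromosome 13, against 71.9, 71.6 and 72.0 on the other autosomes. Chromosome 13 thus lay below the other autosomes in each ALDH-low erlotinib library and above them in each ALDH-low DMSO library. In the ALDH-high libraries the values lay close together, at 81.4, 77.7 and 81.3 with erlotinib, against 81.4, 77.9 and 81.5 on the other autosomes, and 77.5, 75.9 and 74.8 with DMSO, against 77.3, 75.2 and 75.6. In DTP and PC9 libraries chromosome 13 lay above the other autosomes in all 6, at 82.8 to 84.9 in DTP and 82.2 to 82.8 in PC9. These are descriptions of a readout the regions were chosen on, and no test was made.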
